A study of Mus musculus with 2 samples.

Results

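Potassium channel genes were followed here as the probes whose deposited gene name starts with Kcn, on 2 two-colour Agilent mouse arrays of pancreatic islet RNA. The set held 141 probes, printed as 168 spots, of 94 genes, out of 55681 gene probes and 34844 gene names on the array. It covers pore-forming subunits, accessory subunits and the long non-coding transcript Kcnq1ot1, which carries the name but encodes no channel. Each array compared islets of a control mouse group, labelled green with Cy3, with islets of RbΔK7 knock-in mice, labelled red with Cy5. RbΔK7 is an allele of the retinoblastoma gene Rb1 whose protein resists phosphorylation. Replicate 1 and replicate 2 were separately grown and harvested samples, so 2 control and 2 mutant samples were measured, and both arrays lay on 1 slide. Islets had been freed by collagenase digestion and collected by hand-picking under the microscope. The strain, age and sex of the mice and any pooling of animals are not given in the sources used here. No Cre driver or transgene promoter is named for the allele, and the picked islets hold every cell type that stayed attached to them. The mutant was red on both arrays, so dye and genotype cannot be told apart. Every ratio below is log2 of mutant over control.

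Potassium channels carry potassium out of the cell and hold or restore a negative membrane voltage. In the beta cell, closing of the ATP-sensitive channel starts electrical activity, and voltage-gated and calcium-activated channels end each action potential. Background channels of the Kcnk genes and inward rectifiers of the Kcnj genes set the resting voltage, while accessory subunits change how the pores open or reach the surface. In epithelia such as pancreatic ducts, KCNQ1 channels and calcium-activated channels instead provide the driving force for chloride secretion.

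The probes on which the highest and lowest ratios rested are given by the first 30 of their 60 bases, 5′ to 3′, since their agreement or disagreement within a gene can be judged only from what each one binds. Capitals mark the bases that the pair of Kcnq1 probes share within these stretches.
Kcne3, chr7:107333062-107333121: gaactcaactcaaccatatcaagccacagt
Kcne3, chr7:107332867-107332926: tattctctttgtcatgttcctatttgccgt
Kcnq1, chr7:150612887-150612946: aatttcgtaGTATGATCTTGATTGAGAGAC
Kcnq1, chr7:150612896-150612955: GTATGATCTTGATTGAGAGACttttccaaa
Kcna6, chr6:126658424-126658483: gagagttgctggtctgatcaaaggagagga
Kcna6, no position given: tgtcatggtccctctttgtgcctcagttcc
Kcna1: gcgcatagttttcatctatgcaattttact
Kcnn4: gccacatagctccacatgaactcacagaag
Kcnj12, chr11:60884556-60884615: tcaggctgcttgtgaccatgttaacgattc
Kcnh3, chr15:99073172-99073231: cattccttgcatgtgcccgtctccactgtc
Kcnq1ot1, chr7:150440140-150440199: ttctcagccaaagggcctactcgttagggt
Positions are those the scanner files give, on mm9. The Kcne3 probes do not overlap, whereas the Kcnq1 probes share 51 of 60 bases and so measure nearly the same stretch. Exon and intron annotation of mm9 was not used here.

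By the call of a signal well above background, potassium channel probes had a smaller detected share than all gene probes in each channel, by little in the mutant of replicate 2. Of the 141 probes, 38 (27%) were well above background in the control of replicate 1 and 44 (31.2%) in the control of replicate 2. In the mutant, 50 (35.5%) were above background in replicate 1 and 65 (46.1%) in replicate 2. Over all gene probes, the shares were 35.9% and 36.8% in the controls and 39.7% and 46.8% in the mutants, so the count was higher in the mutant channel array-wide as well. All 4 channels detected 34 of the Kcn probes (24.1%, against 33.5% of all gene probes), and none detected 73 (51.8%, against 52.1%). By gene, 29 of 94 had a probe above background in every channel and 40 had none in any. The mutant of replicate 2 alone detected 13 probes (9.22%, against 6.25% of all gene probes). Both mutants and neither control detected 6 (4.26%, against 2.44%), and the reverse pattern was found for 0 of the Kcn probes and 9 of all gene probes. With the looser call of a positive and significant signal, 58 probes were detected in all 4 channels. By that call the Kcn share was below that of all gene probes in the controls (55.3% against 57.7%, and 54.6% against 57.3%) and above it in the mutants (63.8% against 59.1%, and 66.7% against 64.5%).

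**Figure D1:**
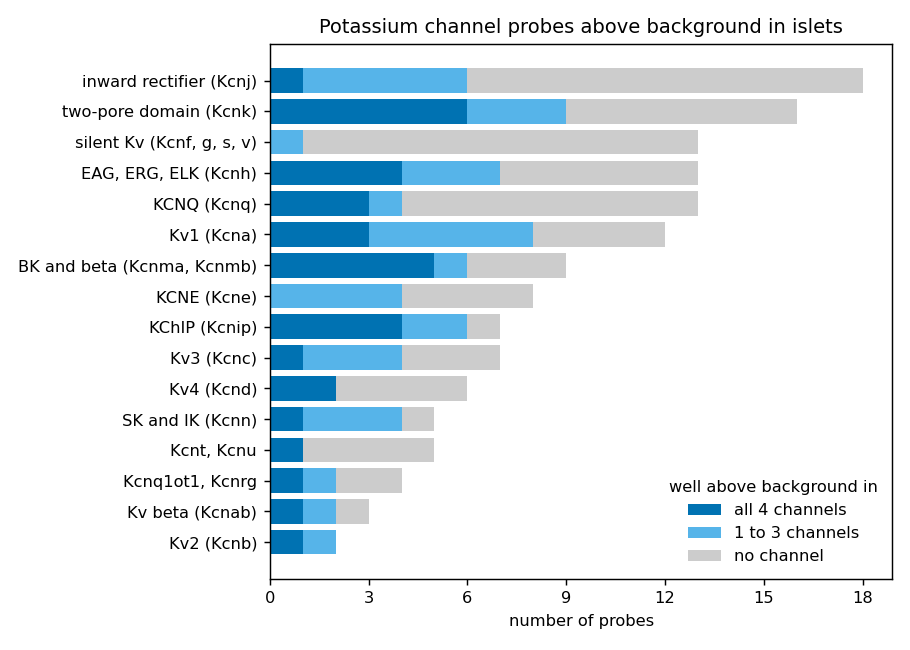
Number of Kcn probes in each subfamily (horizontal axis) that were well above background in all 4 channels, in some channels or in none. No probe of the silent Kv subunits was well above background in all 4 channels, and 12 of the 18 inward rectifier probes were not detected in any.

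The testing rule given below kept 40% of all gene probes and 35.5% of the Kcn probes. It kept 7 of 16 probes of the Kcnk background channels (43.8%), near the share of all gene probes, and 6 of 9 probes of the BK channel and its accessory subunits. Of the inward rectifier probes it kept 2 of 18, and of the silent Kv subunits, which form no channel alone and modify other Kv pores, 0 of 13. These subfamilies are small, and their shares were not tested against each other. Among genes with a textbook role in islets, Kcnc2, Kcng2, Kcnj3, Kcnj5, Kcnj6, Kcnj8 and Kcnk9 had no probe that met the testing rule, and their ratios are not given. Kcnk17 is not among the gene names on the array.

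The testing rule kept 50 probes of 41 genes, those for which each array had at least 1 channel well above background. A probe detected in the mutant alone, on 1 array or on both, passed there through the group in which it was high. In limma's test of 2 ratios against 0, two-sided and adjusted by Benjamini-Hochberg over all 22246 tested probes, 0 of the 50 passed 0.05 in either direction. Over all tested probes, 83 passed as higher in the mutant (0.373%) and 3 as lower (0.0135%). The smallest adjusted p among the potassium channel probes was 0.0541, for Kcne3. At an unadjusted p of 0.05 in the same test, 9 of the 50 were higher (18%, against 8.15% of all tested probes) and 3 were lower (6%, against 3.21%). The higher probes include both of Kcne3, both overlapping ones of Kcnq1, and that of Kcnn4, which was detected in the mutants alone. They are thus not separate members. With the brightest probe of each gene, 6 of 41 genes were higher and 3 lower. The share over all genes by this rule was not computed, so these gene counts are not read as a result. A prior that varied with intensity and was made robust gave 6 probes past the adjusted threshold, both of Kcne3, both of Kcnq1, 1 of Kcna1 and 1 of Kcna6, all higher. That setting raised the count over all probes from 86 to 564. Counts of Kcn calls under the other settings ran from 0 to 13. They were 4 of 141 with no filter on dim probes and 0 of 34 with both channels above background, and the remaining settings had 50 Kcn probes. The count of 13 came with centring on all probes, where 6746 of all 22246 tested probes passed, so it is no trait of the Kcn probes.

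The tested Kcn probes showed no common shift. Their median ratios were 0.06 on replicate 1 and 0.09 on replicate 2, against 0.02 and 0.02 for all tested probes. The SD of their ratios was 0.405 on replicate 1 and 0.505 on replicate 2, against 0.293 and 0.478 overall. On both arrays 22 probes were higher (44%, against 32.3% of all tested probes) and 12 were lower (24%, against 25.3%). These counts include probes that met the testing rule through the mutant channels alone, 6 of the 50 Kcn probes and 1360 of all 22246. Others did so on 1 array. All channels but the control of replicate 1 detected 7 Kcn probes and 1035 of all, and all but the control of replicate 2 detected 1 and 651. All but the mutant of replicate 1 detected 1 and 180, and all but that of replicate 2 detected 0 and 56. The testing rule favours higher ratios, so the larger share of higher Kcn probes is not read as a result. Among probes above background in all 4 channels, the median was -0.0025 for Kcn and -0.0024 for all. Taking the brightest probe of each gene, 15 genes were higher on both arrays, 11 were lower on both and 15 had opposite signs. The mean ratio lay within 0.3 of 0 for 32 of the 41 genes. These gene counts, too, have no share over all genes beside them.

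**Figure D2:**
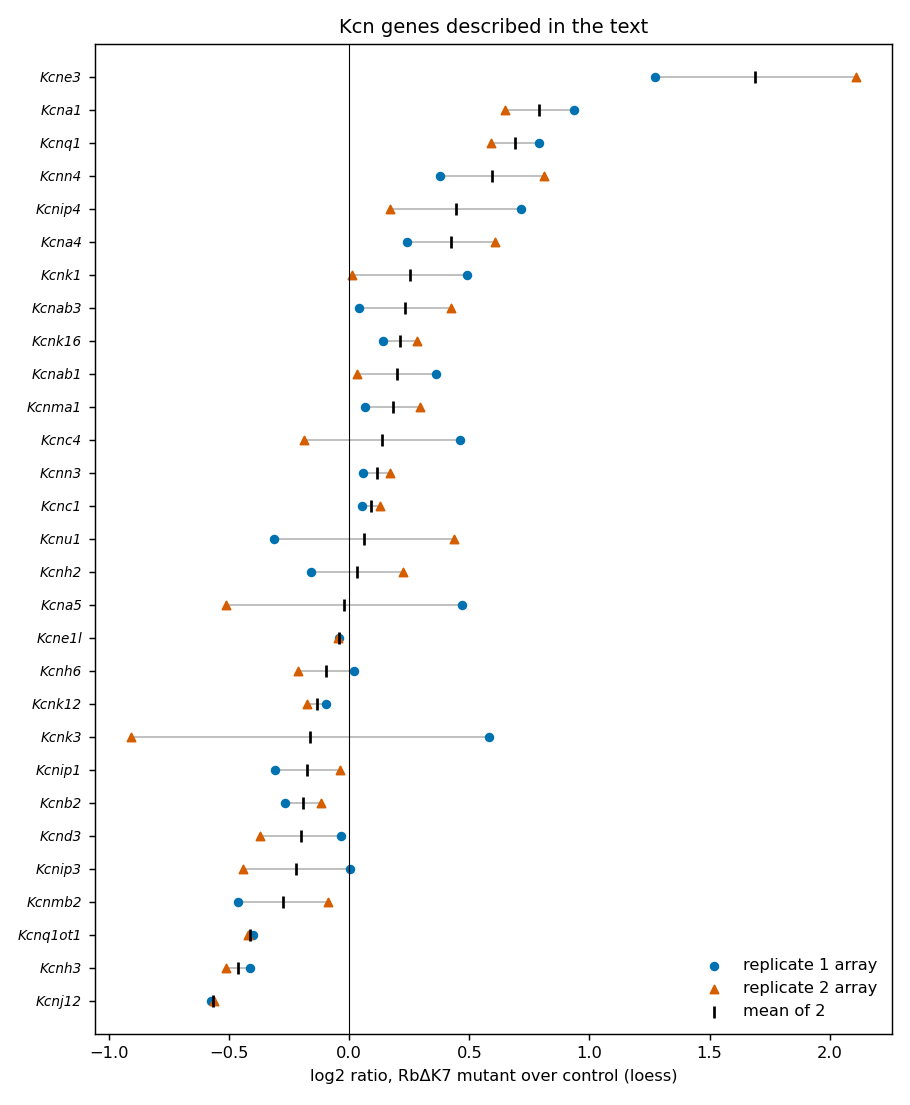
Log2 ratio of mutant over control (horizontal axis) on replicate 1 and replicate 2 for the potassium channel genes described in the text, 1 brightest probe each, ordered by mean; points are the arrays and bars join them. Kcne3 stands at the top, at 1.27 and 2.11, and Kcnj12 at the bottom, at -0.58 and -0.56, while Kcnk3 has the longest bar, from 0.58 to -0.91.

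Kcne3 and Kcnq1, partner subunits of an epithelial channel, were both higher in the mutant on both arrays. Kcne3 encodes a single-span accessory subunit that keeps KCNQ1 channels open at rest. Its normalised log2 level was 6.59 and 6.98 in the controls of replicates 1 and 2 and 7.86 and 9.09 in the mutants. Both mutants lay above both controls. The ratios of 1.27 and 2.11 gave a mean of 1.69 ± 0.59 (SD, n = 2 arrays), a 3.23-fold difference with a 95% limma interval of 1.16 to 2.22 in log2 and an adjusted p of 0.0541. The control of replicate 1 was not well above background, so the ratio on that array rests on a dim control signal and the size of the difference depends on the background correction. The mean was 2.62 without the offset and 3.44 with the scanner software's processed signals, on the log2 scale. The second Kcne3 probe, whose sequence does not overlap the first, gave 1.01 and 1.62 (mean 1.32 ± 0.43 SD, limma adjusted p = 0.0632), and its control of replicate 1 was dim as well. Over the alternative settings the adjusted p of the brighter probe ran from 2.2e-09 to 0.725.

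Kcnq1 encodes the pore of the slow delayed rectifier of the heart and of epithelial channels. Its level was 8.17 and 8.37 in the controls and 8.96 in both mutants, above background in every channel and without overlap between the groups. The mean ratio was 0.69 ± 0.14 (SD, n = 2 arrays), 1.61-fold, with an adjusted p of 0.147 from limma. The overlapping second probe gave 0.74 and 0.62, with a limma adjusted p of 0.142. Kcne1l, another accessory subunit of the KCNE family, had ratios of -0.04 and -0.04.

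Kcnn4 encodes the intermediate-conductance calcium-activated channel of epithelia, blood cells and islets. Its level was 6.49 and 6.53 in the controls, not well above background on either array, and 6.87 and 7.34 in the mutants, which were. Both mutants lay above both controls. The probe met the testing rule through the mutant channels alone. With the control dim, the loess values put the mutant mean 1.51-fold higher, with a limma adjusted p of 0.257. The 95% limma interval was 0.21 to 0.99 in log2. The at-least fold, described under the processing, was also 1.51, the same as the estimate, so it is not read as a minimum. The comparison is between channels and so open to dye bias. Centring over tested probes gave a mean of 0.30, so the size of the difference depends on the scale. The other tested member of its family, Kcnn3, a small-conductance channel that contributes to the slow potassium current of beta cells, had ratios of 0.06 and 0.17.

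**Figure D3:**
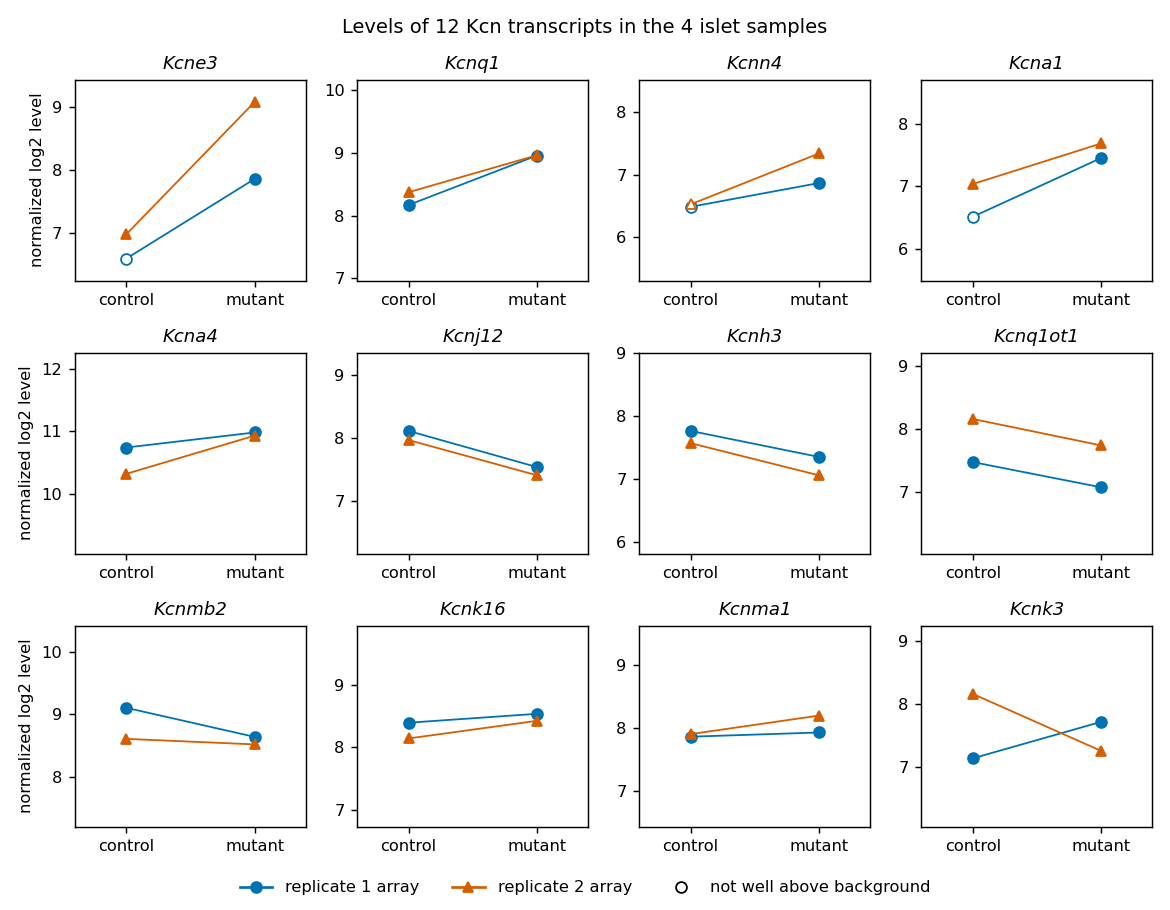
Normalised log2 level (vertical axis, each panel with its own range of equal height) in the control and the mutant of each array, joined by a line per array, with open symbols where the signal was not well above background, for potassium channel probes described in the text. Lines for Kcne3 and Kcnq1 slope up on both arrays and that for Kcnj12 slopes down on both; heights are not to be compared between panels.

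Among the Kv1 genes, which encode low-threshold and A-type voltage-gated pores, 5 of 8 could be tested, and 2 were higher on both arrays. Kcna1, a channel of myelinated axons and many neurons, had levels of 6.52 and 7.04 in the controls and 7.45 and 7.68 in the mutants. The groups did not overlap, and the control of replicate 1 was not well above background. The mean ratio was 0.79 ± 0.20 (SD, n = 2 arrays), 1.73-fold, with a limma adjusted p of 0.119, and its size also depended on the background correction, at 1.45 without the offset and 2.09 with processed signals. Kcna4, an A-type channel, was detected in every channel, at 10.74 and 10.32 in the controls and 10.98 and 10.93 in the mutants. Its groups also did not overlap, and its ratios of 0.24 and 0.61 gave a limma adjusted p of 0.377.

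The probes of Kcna6, another Kv1 pore, disagreed, and the gene is described because of that, after its values were seen. The probe with a position on chromosome 6 had levels of 6.61 and 7.33 in the controls and 7.34 and 8.19 in the mutants, with the control of replicate 1 not well above background. Its ratios of 0.73 and 0.87 (mean 0.80 ± 0.093 SD) had a limma adjusted p of 0.0957. The brightest Kcna6 probe, which has no stated position, had 7.61 and 7.76 in the controls and 7.57 and 7.75 in the mutants, with a mean ratio of -0.03 and a 95% limma interval of -0.35 to 0.29. The remaining Kcna6 probe did not meet the testing rule. Which transcript each probe reports was not tested. Kcna5, the ultrarapid delayed rectifier gene, had ratios of 0.47 on replicate 1, where its control was not well above background, and -0.51 on replicate 2. Its other tested probe gave 0.19 and 0.07. The cytoplasmic beta subunits Kcnab1 and Kcnab3, which bind Kv1 channels, had ratios of 0.36 and 0.03, and of 0.04 and 0.42.

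Other voltage-gated pores had ratios of either sign. Kcnb2, a delayed rectifier gene, had ratios of -0.27 and -0.12, near the background of the array. Of the fast-gating Kv3 genes, Kcnc1 was detected in the mutants alone and had ratios of 0.05 and 0.13. Kcnc4, detected in 2 of 4 channels, had 0.46 and -0.19. Kcnd3, an A-type Kv4 pore, had -0.03 and -0.37.

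The KChIP genes encode calcium-binding subunits that bring Kv4 channels to the surface, and 3 of 4 could be tested. Kcnip4 had ratios of 0.72 and 0.17 (limma adjusted p = 0.42). Kcnip3, which also acts as a transcriptional repressor, had 0.0020 and -0.44. The Kcnip1 probes differed in sign, at -0.31 and -0.04 for the brighter and 0.24 and 0.14 for the other. No common direction was seen in this family.

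In the EAG family, whose ERG members help repolarise beta and alpha cells, 4 of 8 genes could be tested and 1 had the same sign on both arrays. Kcnh3, a channel known from forebrain, had levels of 7.76 and 7.57 in the controls and 7.35 and 7.06 in the mutants, without overlap. Its mean ratio was -0.46 ± 0.069 (SD, n = 2 arrays), with a limma adjusted p of 0.286. Kcnh2, the ERG gene of the heart, had -0.16 and 0.22. Kcnh6, an ERG gene expressed in islets, had 0.02 and -0.21, and its other tested probe had -0.17 and 0.12, the opposite sign on each array.

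The calcium-activated BK channel had small ratios that differed in sign between its pore and a beta subunit. All 3 probes of the pore gene Kcnma1 were higher on both arrays, at 0.07 and 0.30, at 0.11 and 0.18, and at 0.33 and 0.24. The probes of Kcnmb2, an accessory subunit that makes the channel inactivate, were lower on both arrays, at -0.46 and -0.09 for the brighter and -0.32 and -0.28 for the other. No probe of either gene passed the test, and the lowest adjusted p from limma was 0.471, for Kcnmb2.

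Among the Kcnk background channels, 7 of 14 genes could be tested, of which 2 were higher on both arrays, 1 was lower on both and 4 had opposite signs. Kcnk16, an islet channel that limits calcium entry in beta cells, had levels of 8.39 and 8.14 in the controls and 8.54 and 8.42 in the mutants. Its ratios were 0.14 and 0.28, with a 95% limma interval of -0.12 to 0.54 around the mean. Kcnk1 had ratios of 0.49 and 0.013, and Kcnk12 had -0.09 and -0.18. Kcnk3, an acid-sensitive background channel, showed the largest disagreement between arrays among the tested genes. On replicate 1 the level went from 7.13 in control islets to 7.72 in mutant islets, but on replicate 2 it went from 8.16 to 7.25. The ratios of 0.58 and -0.91 had an SD of 1.05.

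Acinar marker levels differed between these same samples. The acinar list, 10 digestive enzyme genes, had a median level of 16.4 and 17.7 in the controls and 17.1 in the mutant of replicate 1, but 12.1 in the mutant of replicate 2. Its median ratios were 0.52 and -5.20. The alpha list also went from a positive to a negative median ratio, at 0.78 and -0.30, while the beta list went the other way, at -0.58 and 0.25. Whether RNA of acinar or of any other cells carried any of the Kcnk3 signal was not tested.

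Of the inward rectifiers, which pass potassium more easily into the cell, Kcnj12 had the lowest mean ratio of any tested potassium channel gene. Kcnj12 encodes a strong inward rectifier of muscle. It was detected in every channel, at 8.11 and 7.97 in the controls and 7.54 and 7.40 in the mutants, without overlap. The ratios of -0.58 and -0.56 gave a mean of -0.57 ± 0.0097 (SD, n = 2 arrays), 0.674 times the control level, with a 95% limma interval of -0.89 to -0.25 and a limma adjusted p of 0.194. The close agreement of the arrays does not cover dye bias, which would fall the same way on both.

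Kcnq1ot1, the long non-coding transcript read antisense to Kcnq1 from the paternal allele, had ratios of the opposite sign to Kcnq1. Its level was 7.47 and 8.16 in the controls and 7.07 and 7.74 in the mutants. The groups overlapped across arrays, while within each array the mutant was lower. The mean ratio was -0.41 ± 0.014 (SD, n = 2 arrays), with a limma adjusted p of 0.326. Kcnu1, a sperm channel gene, had ratios of -0.31 and 0.44.

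A further list held 26 genes for partners of potassium channels and other channels of excitable cells, and 21 of them were measured. On both arrays 6 were higher and 6 were lower, 0 passed the limma test, and the list medians were 0.08 and -0.01. Lrrc26, an accessory subunit that lets BK channels open in secretory epithelia, had ratios of 0.30 and 0.64. Abcc9, the sulfonylurea receptor of smooth muscle and pericytes, had 0.25 and 0.61, while its pore partner Kcnj8 was not tested. Dpp6, which speeds Kv4 channels and is high in alpha and beta cells, had 0.87 and 0.20. Hcn2, a pacemaker channel gene, had -0.07 and -0.49.

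Stromal, duct, endothelial, pericyte, neural, delta and pancreatic polypeptide cell marker lists had positive median ratios on both arrays. The acinar, leukocyte, erythroid, beta and alpha lists did not. In these bulk samples, fewer cells of a type and less RNA per cell cannot be told apart. All 9 stromal markers were higher on both arrays, with median ratios of 2.58 and 1.66, and 6 passed the adjusted limma test. Of the duct markers 4 of 6 measured were higher on both arrays (list medians 0.59 and 0.80), and 2 passed the test. The median duct marker level was 7.75 and 8.18 in the controls and 8.79 and 9.46 in the mutants. On both arrays 7 of 8 Schwann and neural markers had positive ratios (list medians 0.58 and 0.47), and 0 passed the test. Endothelial markers had medians of 0.42 and 0.53 and 1 past the test. Pericyte and smooth muscle markers had 0.47 and 0.66.

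Kcne3, Kcnq1, Kcnn4 and Kcna1 were higher on both arrays, and so were the medians of the duct and of the Schwann and neural lists. The stromal, endothelial, pericyte, delta and pancreatic polypeptide cell list medians were higher on both arrays too, so the shared direction singles out no list. The part of any cell type in those ratios was not tested. Of the endocrine lists, 2 changed sign between arrays: the beta list had median ratios of -0.58 and 0.25 and the alpha list 0.78 and -0.30. The delta list had 1.19 and 0.09, and both measured pancreatic polypeptide cell markers were higher, with medians of 2.07 and 0.89. The leukocyte list gave -0.08 and 0.02, and the erythroid list -0.06 and -0.52. The Rb1 probe, which does not report the altered protein, had ratios of 0.48 and 0.14.

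**Figure D4:**
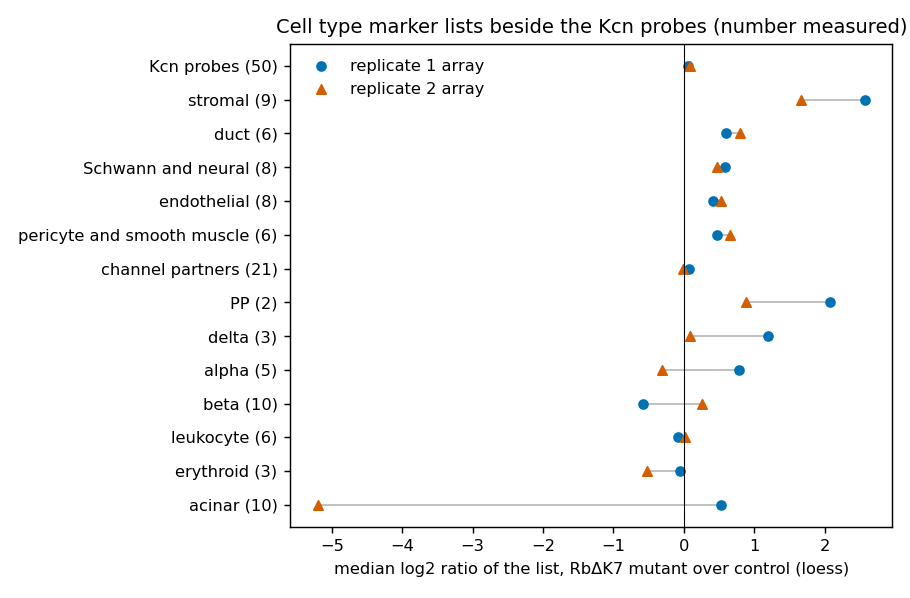
Median log2 ratio of mutant over control (horizontal axis) of each cell type marker list, the channel partner list and the tested Kcn probes, on replicate 1 and replicate 2. The stromal list lies at 2.58 and 1.66, the acinar list at 0.52 and -5.20, and the Kcn probes near 0.

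Because the RB protein acts through E2F factors, promoters were searched for E2F-type words as a description. The words TTTCCCGC, TTTGGCGC, TTTCGCGC and TTTGCCGC were searched on both strands, from 250 bases before to 50 after each start, in RefSeq sequence of build GRCm38.p6. At least 1 word was found in 744 of 32851 promoters (2.26%) and in 5 of 95 Kcn promoters (5.26%), which belong to 70 matched genes. The genes were Kcna3, Kcna6, Kcnh5, Kcnip1 and Kcnip3. For the tested genes it was 3 of 37 promoters. The stretch around the Kcna6 word is shown because its probes gave both a high and a near-zero ratio, with the word, which lies on the reverse strand, in capitals.
Kcna6, chr6:126740770-126740829, minus strand, GRCm38.p6: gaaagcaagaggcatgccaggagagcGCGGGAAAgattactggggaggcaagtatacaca
The other tested genes with a word, Kcnip1 and Kcnip3, had the ratios given above and no common direction. A word is a match of letters and not a measured binding site.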

How the data were processed

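Islet RNA of 2 control and 2 RbΔK7 samples was labelled from 15 ng and hybridised as 2 two-colour pairs, with pairing by shared array, per the labels' protocols. Per the file headers, the authors took intensity values from the scans with Feature Extraction 10.7.3.1 of Agilent. The deposited log10 ratios of red over green and the deposited value table were used as alternatives only (largest difference between them 0). Log2 ratios were computed in R 4.3.3 with limma 3.58.1 by normexp background correction (offset 50) and loess within each array (span 0.3, control spots at weight 0). Outlier gene spots (235 and 258) were left out, 0 gene spots were saturated, and spots of a probe were averaged. Loess left the tested probes at medians of 0.02 and 0.02, whereas centring each array on all probes left them at 0.40 and 0.84. Levels are channel values after Aquantile scaling. The prior had 4.93 degrees of freedom and the residual 1. At-least folds set the mutant mean against the higher of the dim signal and the lowest signal well above background. The script was tested on simulated data.

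Precision is limited by the number of arrays. The limma p-values and intervals rest more on the spread pooled over all tested probes (prior SD 0.205) than on the spread of a probe's own 2 pairs. Either spread may be partly technical. Named genes were every Kcn probe past the threshold, the 10 highest and 10 lowest means among genes with 1 sign, the 6 largest disagreements between arrays, and genes with a textbook islet role. The members, marker lists, partner list and rules were chosen with earlier results of these data known. All 94 gene names matched a RefSeq symbol. Some genes of the family enter the counts or were left out and are not reported here. Alternatives were other backgrounds, centring, filters, priors, separate channels and leaving out each replicate.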

Additional observations from a re-analysis of the deposited data

How the results depend on the processing

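Of the 29 named genes, none lost an adjusted call, since none had one. The count of Kcn probes called higher was 13 with centring on all probes, 4 with no filter on dim probes, 6 with the trended and robust prior and 4 with centring over tested probes, a setting chosen after seeing the data. It was 0 with offset 0, processed signals, the deposited value table, both channels above background and the fit without the replicate block, in which the arrays do not pair their channels. The setting of both channels kept 34 Kcn probes, and 76 of all 18661 probes passed there. It left out the probes of Kcne3, Kcna1 and Kcnn4 and the chromosome 6 probe of Kcna6, so its count does not cover them. The count over all probes was 86, and became 6746, 345, 564 and 813 in the first group and 0 with offset 0, processed signals, the value table and without the replicate block, where 2475, 2349, 2352 and 1496 had an unadjusted p under 0.05. The median ratio of the Kcn probes was 0.0477, and became 0.518 with centring on all probes, when the median of all tested probes was 0.622. It was 0.0899 with offset 0, 0.104 with processed signals and with the value table, -0.0025 with both channels, 0.0092 with no filter, -0.101 with centring over tested probes, 0.0163 with 1 probe per gene and 0.0551 to 0.0943 leaving out a replicate. Detection in all 4 channels was 34 probes, or 58 with the looser call.

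Signs turned with centring on all probes for Kcna5 (0.18), Kcnd3 (0.020), Kcne1l (0.16), Kcnh3 (0.066), Kcnh6 (0.27), Kcnip1 (0.43), Kcnip3 (0.51), Kcnj12 (0.045), Kcnk12 (0.41), Kcnk3 (0.42), Kcnmb2 (0.49) and Kcnq1ot1 (0.18). With offset 0 they turned for Kcna5 (0.19) and Kcnh2 (-0.00081). With processed signals they turned for Kcna5 (0.70) and Kcnu1 (-0.037), and with the value table for Kcna5 (0.70) and Kcnu1 (-0.038). With centring over tested probes they turned for Kcnab1 (-0.16), Kcnc1 (-0.49), Kcnc4 (-0.33), Kcnh2 (-0.054), Kcnn3 (-0.012) and Kcnu1 (-0.036). Leaving out a replicate gave -0.19 to 0.46 for Kcnc4, -0.51 to 0.47 for Kcna5, -0.16 to 0.22 for Kcnh2, -0.21 to 0.021 for Kcnh6, -0.44 to 0.0020 for Kcnip3, -0.91 to 0.58 for Kcnk3 and -0.31 to 0.44 for Kcnu1. Apart from the different scale of each centring, the cause was not tested. Signal near background limits Kcne3, Kcna1, Kcnn4 and the chromosome 6 probe of Kcna6.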
